A study of Homo sapiens with 15 samples.

Results

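Chaperones and heat shock proteins are the genes described here, as measured by RNA sequencing of the human melanoma cell line A375. The members were picked by gene symbol: the HSP90, HSP70, HSP110 and small heat shock protein families, HSPD1 and HSPE1, the J proteins of the DNAJA, DNAJB and DNAJC classes, the subunits of the chaperonin TRiC, the BAG proteins, the heat shock factors HSF1 and HSF2, PDIA3 to PDIA6, and the lectins CALR and CANX. Of the 17360 symbols listed in either experiment, 98 matched, of which 56 encode proteins assigned here to the cytosol or nucleus, 19 to the endoplasmic reticulum (ER), 10 to mitochondria and 13 to none of these, among them 8 symbols of HSP90 pseudogenes. The 15 libraries formed 5 groups of 3. In the first experiment, of 9 libraries, cells overexpressing VAV1 were given saracatinib, an inhibitor of SRC family kinases, cells overexpressing VAV1 were given vehicle, and cells with an empty vector were given vehicle. In the second experiment, of 6 libraries, cells overexpressing RAC1 P29S and cells with an empty vector were untreated. VAV1 loads small GTPases, RAC1 among them, with GTP, while P29S is an activating change of RAC1 that recurs in melanoma. The labels gave no dose, no time, no promoter and no statement of whether a line was 1 clone, and no group combined the empty vector with saracatinib, so an action of saracatinib on cells without VAV1 was not measured. For the RAC1 P29S libraries the titles were followed, since the genotype label beside them read empty vector.

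Each value is the log2 of a normalized count plus 1, called a log2 value below, so that fold changes on this scale understate the change of low genes. The study describes the 3 libraries of a group as biological triplicates and does not say whether they were transduced apart, so a p here reflects only how much such cultures vary. VAV1 had log2 values of 14.10 to 14.16 with saracatinib and 13.86 to 13.94 with vehicle, against 1.90 to 2.49 in the empty-vector vehicle libraries. RAC1 had 14.89 to 14.95 in the RAC1 P29S libraries, against 11.87 to 11.90 in the untreated empty-vector libraries, as the titles would have it. With the log undone, libraries summed to 14443918 to 16262759 normalized counts. Pearson correlations of log2 values between libraries were 0.981 to 0.987 within a group and 0.942 to 0.967 between groups of an experiment. Of 8 melanocytic markers, 6 were listed in the first experiment and 8 in the second. SOX10 and MITF were present throughout, MLANA stayed at log2 4.45 or under, and TYR stayed at 2.68 or under where it was listed. The summed normalized count of the melanocytic list was 4344 to 4544 with VAV1 and saracatinib, 3453 to 3570.4 with VAV1 and vehicle and 10586 to 11252 with the empty vector and vehicle, and 6300.2 to 6695 with RAC1 P29S against 12993 to 13961 with the untreated empty vector. This sum moved with every comparison below, and its part in the results was not tested. SOX10, S100B and MIA moved between these groups in the direction of the sum, and MITF moved in the opposite direction. Mean log2 values of MITF were 8.997 with VAV1 and saracatinib, 10.091 with VAV1 and vehicle and 8.525 with the empty vector and vehicle. They were 9.579 with RAC1 P29S and 8.35 with the untreated empty vector. The sum therefore does not describe every marker of the list. Haematopoietic markers summed to at most 27.7 normalized counts in any library and epithelial markers to at most 6.79, while endothelial markers reached 78.1 and fibroblast markers 330.4 (PECAM1, VWF and CDH5; COL1A1, COL1A2 and PDGFRB).

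Chaperones bind proteins that are not yet folded, or have lost their fold, and use cycles of ATP binding to let them fold. In the cytosol, HSP70 proteins work with J proteins, which bring them clients, and pass some clients on to HSP90, while the ring-shaped TRiC folds actin and tubulin. The heat shock factor HSF1 switches on many of these genes under heat or proteotoxic stress, through heat shock elements in their promoters. The ER has its own HSP70 (HSPA5), HSP90 (HSP90B1), disulfide isomerases and lectins, which the unfolded protein response raises, in part through ER stress response elements. Mutant BRAF, which A375 cells carry, is a known client of HSP90.

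Promoter matches to both elements are shown as background to the compartments. Whether they bear on the changes in the comparisons that follow was not tested. RefSeq promoter windows of 250 bases before to 50 bases after the start (GRCh38.p14) were found for 79 of the 98 members. The heat shock element was searched on both strands as the units GAA, TTC and GAA with any 2 bases between neighbours, and 0.49% of all 35116 windows, or 0.608% of the 27305 genes with a window, held it. It was found for 7 of 79 members, namely 6 of 49 cytosolic ones (DNAJA1, DNAJB6, HSP90AA1, HSP90AB1, HSPA6 and HSPA8), 1 of 10 mitochondrial ones (HSPD1) and 0 of 17 ER ones. The ER stress response element was searched on both strands as CCAAT, any 9 bases and CCACG, and 0.0769% of all windows, or 0.0916% of genes with a window, held it. It was found for 5 of 17 ER members (CALR, CANX, HSP90B1, HSPA5 and PDIA6), 0 of 49 cytosolic ones and 0 of 10 mitochondrial ones. A match is a string of letters and not a measured site. Capitals mark the match, which in some lines reads on the opposite strand, and each line runs 5′ to 3′ on the gene's strand. The lines are a selection: the matches of DNAJB6, HSPA6 and CANX are not printed. Further matches of HSP90AB1, HSPA8, HSPD1 and HSP90B1 are left out as well. The lines for the heat shock element come first.
HSP90AA1, chr14:102087112-102087140, minus strand: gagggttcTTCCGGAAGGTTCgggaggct
HSP90AB1, chr6:44247758-44247810, plus strand: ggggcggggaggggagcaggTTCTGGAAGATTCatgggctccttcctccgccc
HSPA8, chr11:123062171-123062199, minus strand: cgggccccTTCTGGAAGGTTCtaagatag
DNAJA1, chr9:33025268-33025296, plus strand: gccgggcgGAACTTTCCAGAAcgctcggt
HSPD1, chr2:197500060-197500088, minus strand: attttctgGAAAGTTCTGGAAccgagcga
The lines for the ER stress response element follow.
HSP90B1, chr12:103930211-103930239, plus strand: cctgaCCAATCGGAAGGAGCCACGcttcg
HSPA5, chr9:125241371-125241429, minus strand: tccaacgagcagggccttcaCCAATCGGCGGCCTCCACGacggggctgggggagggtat
PDIA6, chr2:10812848-10812876, minus strand: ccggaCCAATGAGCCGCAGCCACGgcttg
CALR, chr19:12938364-12938422, plus strand: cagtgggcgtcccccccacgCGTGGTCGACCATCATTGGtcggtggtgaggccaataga

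VAV1 cells held more mRNA of most cytosolic and mitochondrial chaperones than empty-vector cells, both with vehicle, and less of several ER chaperones. Of the 98 members, 85 passed the filter in this experiment, which asked for 3 or more libraries with a normalized count of 10 or more, and 36 of these rose and 12 fell (limma, Benjamini-Hochberg adjusted p under 0.05 over all 14410 genes tested). Among all tested genes, 23.6% rose and 20.1% fell. In the cytosol 27 rose and 4 fell of 50, in mitochondria 6 rose and 1 fell of 10, and in the ER 3 rose and 6 fell of 19. The median log2 fold change was 0.24 in the cytosol, 0.33 in mitochondria and -0.07 in the ER, beside 0.02 over all tested genes. Chaperone genes made up 2.64% ± 0.03 of the normalized counts in the VAV1 libraries and 2.15% ± 0.06 in the empty-vector libraries (SD, n = 3 each). Of the 48 calls, 40 held under every alternative and 7 were lost without a single library. In bulk RNA, more cells that express a gene and more RNA per cell cannot be told apart.

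Saracatinib in VAV1 cells was accompanied by lower cytosolic and mitochondrial chaperones and higher ER chaperones. Of the 85 members tested, 16 rose and 28 fell with saracatinib, against 18.3% and 19.1% of all tested genes. In the cytosol 6 rose and 23 fell, in mitochondria 1 rose and 5 fell, and in the ER 9 rose and 0 fell. Of the 19 ER members, 12 were higher and 0 lower at limma's unadjusted p under 0.05, and the 10 that did not pass had log2 fold changes of -0.05 to 0.29. Medians were -0.16 in the cytosol, -0.12 in mitochondria and 0.16 in the ER, beside -0.0069 over all tested genes. The split depended on the scaling: after quantile normalization 21 members rose and 21 fell, so that 50% of the calls were higher, against 36.4% as deposited. In the cytosol that normalization left 7 higher and 17 lower, and in the ER 12 higher and 0 lower. The VAV1 vehicle libraries served in this comparison and in the preceding one, so the opposite signs of their fold changes are not separate evidence, and the values are given side by side.

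VAV1 cells with saracatinib, set against empty-vector cells with vehicle, had 26 chaperone genes higher and 11 lower of 85, while 22.4% of all tested genes were higher and 21.0% lower. By compartment, 13 were higher and 7 lower in the cytosol, 8 higher and 2 lower in the ER, and 4 higher and 1 lower in mitochondria. The count of higher genes dropped to 17 without saracatinib replicate 3, and that of lower genes to 7 without saracatinib replicate 1 and to 6 without empty-vector replicate 3. Chaperone genes made up 2.28% ± 0.02 of the normalized counts in the VAV1 saracatinib libraries (SD, n = 3).

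RAC1 P29S cells had 8 ER chaperones lower than their untreated empty-vector cells and none higher. Cytosolic calls, in either direction, were no more frequent than calls among all tested genes. Of 84 members tested there, 9 rose and 15 fell, while 15.6% of all tested genes rose and 15.5% fell. In the ER 0 rose and 8 fell of 19, with a median log2 fold change of -0.15 beside -0.0043 over all tested genes. At limma's unadjusted p under 0.05, 0 ER members were higher and 9 lower. In the cytosol 7 rose and 5 fell of 50, under the shares of all tested genes, with a median of 0.02. In mitochondria 2 rose and 1 fell of 9. The count of higher genes was 5 without RAC1 P29S replicate 3, and also 5 when limma was run without a mean-variance trend and robust estimation. That fit ended the ER falls of CALR, HSPA5 and HSPA13 and the mitochondrial fall of HSPE1. It also ended the rises of CCT8, DNAJC7, HSF1, HSPD1 and TCP1, and its count of higher genes includes a member that was not called in the main fit. Chaperone genes made up 2.86% ± 0.01 of the normalized counts with RAC1 P29S and 2.81% ± 0.06 with the empty vector (SD, n = 3 each).

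The VAV1 effect and the RAC1 P29S effect share no library, and their difference was tested over all 15 libraries for 83 members tested in both experiments. The VAV1 effect was the higher for 26 members and the lower for 2, where 8.14% and 7.7% of all 13810 genes tested were. All but 6 of the 26 were cytosolic: the difference was above 0 for 20 of 49 cytosolic members and below 0 for 0 of them (26 and 0 at limma's unadjusted p under 0.05), above 0 for 2 of 19 ER members, and above 0 for 3 and below 0 for 1 of 9 mitochondrial members. The experiments also differed in vehicle and in scaling, which each comparison's own control takes up only as far as it acts alike on both of its groups. Their controls were unlike as well. Chaperone genes made up 2.15% of the normalized counts in the vehicle empty-vector libraries and 2.81% in the untreated ones, beside 2.64% with VAV1 and vehicle. The part of this gap between the controls was not tested.

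**Figure D1:**
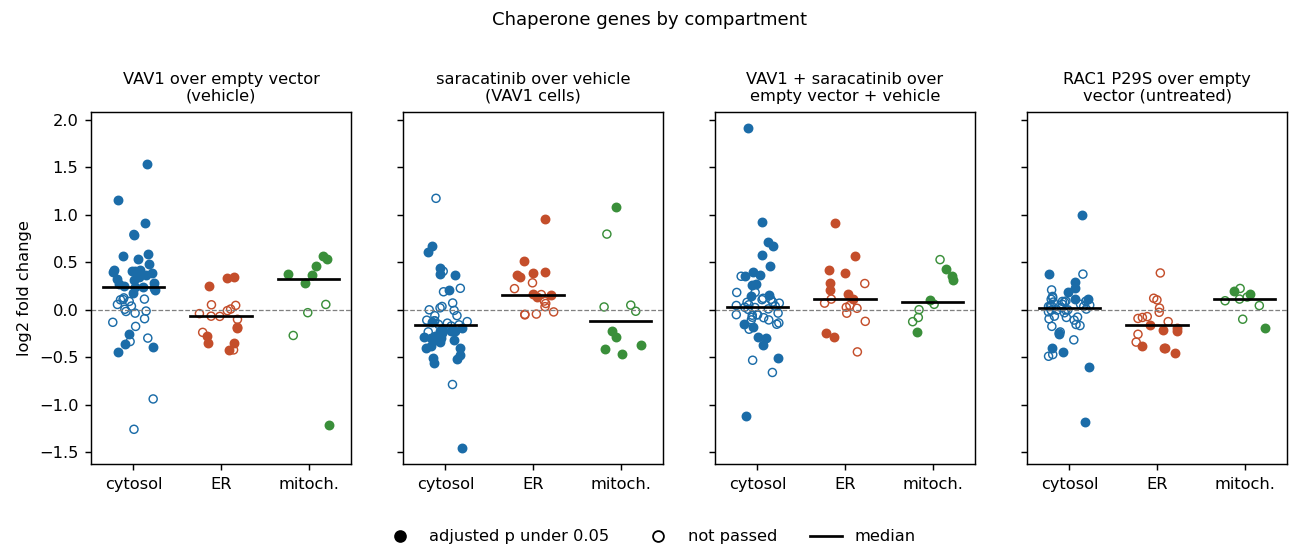
Log2 fold change (vertical axis) of each tested chaperone gene in 4 comparisons, by compartment; filled points passed limma's adjusted p of 0.05, open points did not, and bars are medians. Cytosolic medians lay at 0.24 for VAV1 and -0.16 for saracatinib, ER medians at -0.07 and 0.16, and the ER median for RAC1 P29S at -0.15; the other members are not drawn.

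HSP90 in the cytosol has a stress-inducible form, HSP90AA1, and a more constant form, HSP90AB1. HSP90AA1 (chr14:102080738-102139699, minus strand, GRCh38) had log2 values of 15.29, 15.32 and 15.32 with VAV1 and saracatinib, 15.91, 15.79 and 15.90 with VAV1 and vehicle, and 14.90, 15.03 and 14.93 with the empty vector and vehicle. The 3 groups did not overlap, and the saracatinib libraries lay between the others. Its log2 fold change was 0.91 ± 0.04 (SE) for VAV1 (limma adjusted p = 1.19e-09), -0.55 ± 0.04 for saracatinib (adjusted p = 3.53e-07) and 0.36 ± 0.04 for VAV1 with saracatinib over the empty vector (adjusted p = 1.67e-05). In the second experiment it had 16.13, 16.12 and 16.07 with RAC1 P29S, against 16.10, 16.04 and 16.07 with the empty vector. Those groups overlapped, with a log2 fold change of 0.04 ± 0.03 (limma adjusted p = 0.384) that was -0.06 after quantile normalization. The VAV1 effect exceeded the RAC1 P29S effect by 0.87 ± 0.05 on the log2 scale (limma adjusted p = 1.15e-08). HSP90AB1 had 14.54, 14.48 and 14.54 with VAV1 and saracatinib, 14.98, 14.99 and 14.99 with VAV1 and vehicle, and 14.80, 14.92 and 14.71 with the empty vector. It lay lowest with saracatinib, without overlap, at -0.47 ± 0.04 against VAV1 with vehicle and -0.29 ± 0.04 against the empty vector (limma adjusted p = 2.82e-06 and 0.000167). Its VAV1 difference was smaller, at 0.18 ± 0.04 (limma adjusted p = 0.00526), and missed the threshold without the mean-variance trend and robust estimation (adjusted p = 0.0515). Of the HSP90 pseudogenes, HSP90B2P alone passed the filter, and no comparison of it passed the test.

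HSP70 proteins are the general ATP-driven chaperones, and HSP110 proteins reload them with ATP. HSPA8, the constitutive HSP70 (chr11:123057489-123063230, minus strand), had 15.45, 15.35 and 15.39 with VAV1 and saracatinib, 15.60, 15.60 and 15.66 with VAV1 and vehicle, and 14.96, 15.09 and 15.04 with the empty vector. All VAV1 libraries lay above the empty-vector ones, at 0.59 ± 0.04 with vehicle (limma adjusted p = 6.90e-08) and 0.37 ± 0.04 with saracatinib (adjusted p = 9.52e-06). Between saracatinib and vehicle it differed by -0.22 ± 0.04 (limma adjusted p = 0.000757), a call that was lost after quantile normalization. RAC1 P29S libraries had 15.91, 15.84 and 15.87, against 15.59, 15.55 and 15.61 with the empty vector, without overlap, a rise of 0.29 ± 0.03 (limma adjusted p = 7.95e-05). The VAV1 effect was the larger by 0.30 ± 0.05 (limma adjusted p = 0.0011). The stress-inducible HSPA1A and HSPA1B are near-identical copies whose reads cannot be assigned with certainty, so their sum is the safer value. Its log2 values were 11.53, 11.55 and 11.59 with VAV1 and saracatinib, 11.80, 11.95 and 11.93 with VAV1 and vehicle, and 11.56, 11.44 and 11.41 with the empty vector. The VAV1 vehicle libraries were the highest, and the saracatinib libraries overlapped the empty-vector ones. Taken singly, both copies rose with VAV1 (0.32 ± 0.05 and 0.54 ± 0.07; limma adjusted p = 0.000375 and 4.14e-05) and fell with saracatinib (by 0.40 and 0.28; adjusted p = 8.32e-05 and 0.00761). With RAC1 P29S the sum was 11.89, 11.82 and 11.93, against 11.67, 11.65 and 11.43 with the empty vector, without overlap. The sum itself was not tested. Of the single copies, HSPA1B rose with RAC1 P29S by 0.37 ± 0.06 (limma adjusted p = 0.00081), and HSPA1A did not pass (0.21 ± 0.09, adjusted p = 0.103). HSPA6, an HSP70 that human cells make under strong stress, was low everywhere, at log2 3.43 to 5.54. It had 4.49, 3.72 and 4.15 with RAC1 P29S, against 5.54, 5.20 and 5.16 with the empty vector. Those groups did not overlap, and it fell by 1.18 ± 0.29 (limma adjusted p = 0.0104). With VAV1 its log2 fold change was -0.94 ± 0.37 and did not pass (adjusted p = 0.0573).

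All 3 HSP110 members rose with VAV1. HSPA4L (chr4:127781821-127840733, plus strand) had 8.49, 8.43 and 8.08 with VAV1 and saracatinib, 8.58, 8.55 and 8.57 with VAV1 and vehicle, and 7.36, 7.23 and 7.63 with the empty vector. Both VAV1 groups lay above the empty vector, by 0.93 ± 0.13 and 1.16 ± 0.13 (limma adjusted p = 6.62e-05 and 7.77e-06), and the difference between them did not pass (-0.23 ± 0.13, adjusted p = 0.178). HSPH1 had 12.22, 12.20 and 12.24 with VAV1 and saracatinib, 12.75, 12.72 and 12.72 with VAV1 and vehicle, and 12.26, 12.41 and 12.31 with the empty vector. Here the saracatinib libraries lay just under the empty-vector ones, and the fold changes were 0.41 ± 0.04 for VAV1 and -0.51 ± 0.04 for saracatinib (limma adjusted p = 6.11e-06 and 1.06e-06). HSPA4 rose by 0.25 ± 0.04 with VAV1 (limma adjusted p = 0.000202). With RAC1 P29S none of the 3 passed limma's threshold, and HSPA4L came nearest at 0.38 ± 0.13 (adjusted p = 0.0562); at an unadjusted p under 0.05 it was the only one. HSPA14, which sits with a J protein on the ribosome, rose by 0.48 ± 0.08 with VAV1 (limma adjusted p = 0.000432).

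TRiC is a double ring of 8 different subunits, and its genes moved together. All 8 tested subunits apart from the testis form CCT6B rose with VAV1, by 0.23 (CCT7) to 0.40 (CCT2), and all 8 fell with saracatinib, by 0.19 (CCT8) to 0.51 (TCP1). TCP1, the alpha subunit, had 12.37, 12.27 and 12.30 with VAV1 and saracatinib, 12.85, 12.79 and 12.82 with VAV1 and vehicle, and 12.41, 12.42 and 12.54 with the empty vector. CCT5, the epsilon subunit, had 13.30, 13.23 and 13.22 with VAV1 and saracatinib, 13.66, 13.60 and 13.62 with VAV1 and vehicle, and 13.32, 13.28 and 13.29 with the empty vector. In both, the VAV1 vehicle libraries stood above all others, and the saracatinib libraries were at or under the empty-vector level. TCP1 changed by 0.36 ± 0.05 with VAV1 and -0.51 ± 0.05 with saracatinib (limma adjusted p = 2.67e-05 and 1.68e-06), and CCT5 by 0.33 ± 0.04 and -0.38 ± 0.04 (adjusted p = 1.04e-05 and 3.86e-06). After quantile normalization 5 of the 8 still fell with saracatinib, and CCT4, CCT7 and CCT8 did not pass; the 8 rises with VAV1 held. VAV1 with saracatinib differed from the empty vector in 3 subunits, CCT4 (0.15) and CCT8 (0.15) upward and TCP1 (-0.14) downward. Each of these 3 calls was lost without saracatinib replicate 3. The CCT4 call was also lost without empty-vector replicates 1 or 3, the CCT8 call without saracatinib replicate 1 or empty-vector replicate 1, and the TCP1 call without saracatinib replicate 2 or empty-vector replicate 3, with adjusted p up to 0.118. RAC1 P29S gave 2 small rises, TCP1 (0.11 ± 0.04, limma adjusted p = 0.0355) and CCT8 (0.12 ± 0.04, adjusted p = 0.0431), each lost without any library but empty-vector replicate 3, with adjusted p up to 0.131. The VAV1 effect exceeded the RAC1 P29S effect in all 8 subunits, by 0.20 (CCT7) to 0.41 (CCT2). The difference missed the threshold for CCT7 without empty-vector vehicle replicate 3 (adjusted p = 0.0520) and for CCT8 without VAV1 vehicle replicate 3, empty-vector vehicle replicate 1 or RAC1 P29S replicate 2 (up to 0.0618). TCP1 shares exon bases with ACAT2 on the opposite strand, and CCT4 and CCT5 each with an antisense RNA. Overlaps of this kind are pointed out for some members only. CALR, DNAJB9, DNAJB11, DNAJC7, HSF1, HSPA1B, HSPA4L and PDIA6, among others, also share exon bases with other genes. Whether counting used strand is not given in the sources used here. CCT6B was near the filter, at log2 1.82 to 4.76 in the first experiment, and no comparison of it passed.

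**Figure D2:**
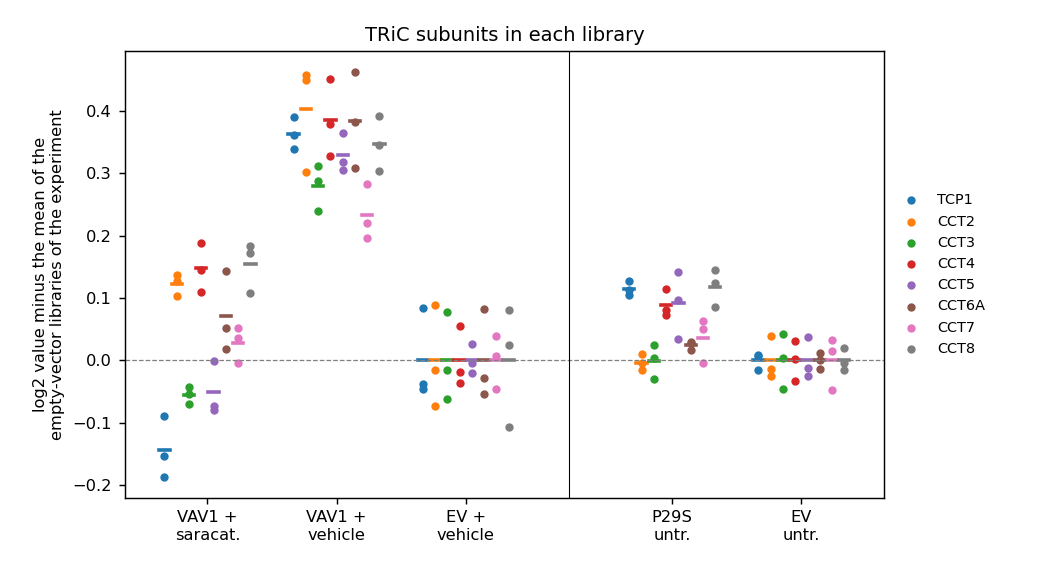
Log2 value of 8 TRiC subunits in each of the 15 libraries, less the mean of the 3 empty-vector libraries of the same experiment (vertical axis); dots are libraries, short bars are group means, EV is the empty vector, and the line parts the experiments. VAV1 vehicle libraries stood above the empty vector for every subunit, with group means 0.23 to 0.40 above it, while saracatinib and RAC1 P29S libraries stayed near it.

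J proteins, also called HSP40s, stimulate the ATPase of HSP70 and choose its clients. Of 38 tested in every compartment, 12 rose and 7 fell with VAV1 (median 0.0009), and 9 rose and 7 fell with saracatinib (median 0.03). All tested genes gave 23.6% higher and 20.1% lower with VAV1, and 18.3% higher and 19.1% lower with saracatinib, and the J protein counts lay near these shares. The 17 cytosolic ones gave 8 higher and 2 lower with VAV1, and 3 higher and 5 lower with saracatinib. DNAJA1, a farnesylated partner of HSPA8, had 12.39, 12.40 and 12.37 with VAV1 and saracatinib, 12.42, 12.32 and 12.44 with VAV1 and vehicle, and 11.91, 12.07 and 11.97 with the empty vector. The VAV1 groups overlapped each other and both lay above the empty vector, by 0.40 ± 0.05 and 0.41 ± 0.05 (limma adjusted p = 2.36e-05 and 1.81e-05). Its RAC1 P29S libraries, at 12.74, 12.73 and 12.71, lay just under the empty-vector ones at 12.88, 12.79 and 12.82, and the difference of -0.11 ± 0.04 did not pass (limma adjusted p = 0.0734). DNAJC7, which binds HSP70 and HSP90 through tetratricopeptide repeats, rose by 0.42 ± 0.05 with VAV1 and fell by 0.31 ± 0.05 with saracatinib (limma adjusted p = 1.12e-05 and 0.000219). DNAJB1, the heat-inducible J protein, rose by 0.21 ± 0.05 with VAV1 (limma adjusted p = 0.00167). Its fall of 0.13 with saracatinib (adjusted p = 0.0347) was lost without saracatinib replicates 1 or 3 or VAV1 replicates 2 or 3, with adjusted p up to 0.126. DNAJB4 rose by 0.57 ± 0.14 with VAV1 (limma adjusted p = 0.00452). DNAJC12 had 7.20, 7.08 and 7.05 with VAV1 and saracatinib, 6.53, 6.62 and 6.16 with VAV1 and vehicle, and 6.47, 6.47 and 6.64 with the empty vector, so that the saracatinib libraries alone stood high (0.67 ± 0.16 over VAV1 with vehicle, limma adjusted p = 0.00412). DNAJC12 is a partner of the aromatic amino acid hydroxylases, and it fell by 0.60 ± 0.14 with RAC1 P29S (limma adjusted p = 0.00994). DNAJC17, found in the nucleus, was 0.29 ± 0.10 lower in VAV1 cells with saracatinib than in empty-vector cells (limma adjusted p = 0.0362), a call lost without any library but empty-vector replicate 1 (adjusted p up to 0.0989). DNAJC6, known as auxilin, rose by 0.44 ± 0.10 with saracatinib (limma adjusted p = 0.00316).

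DNAJB2, a J protein with ubiquitin-binding motifs, was 1 of the 4 cytosolic members that fell with VAV1, where 27 of 50 rose. It had 8.29, 8.40 and 8.30 with VAV1 and saracatinib, 7.89, 7.87 and 8.13 with VAV1 and vehicle, and 8.31, 8.44 and 8.21 with the empty vector. The VAV1 vehicle libraries were the lowest, at -0.35 ± 0.10 (limma adjusted p = 0.0133), with adjusted p = 0.0537 without empty-vector replicate 2. The saracatinib rise of 0.37 ± 0.10 (limma adjusted p = 0.0132) had adjusted p = 0.0515 without VAV1 replicate 2, and the fall of 0.40 ± 0.10 with RAC1 P29S had adjusted p = 0.0101. HSPA2, a testis-enriched HSP70, fell by 0.45 ± 0.17 with VAV1 (limma adjusted p = 0.0437), a call lost without any library but empty-vector replicate 1 (adjusted p up to 0.150). HSPB11, which despite its name belongs to cilia, fell by 0.27 ± 0.07 with RAC1 P29S (limma adjusted p = 0.0195), a call lost without RAC1 P29S replicates 2 or 3 or empty-vector replicate 1 (adjusted p up to 0.0762). DNAJC22, which sits in membranes, fell by 0.46 ± 0.08 with VAV1 (limma adjusted p = 0.000547).

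Small heat shock proteins hold unfolded proteins without ATP. HSPB8, which works with BAG3 in chaperone-assisted autophagy (chr12:119178642-119221131, plus strand), had 8.85, 9.06 and 8.83 with VAV1 and saracatinib, 8.56, 8.56 and 8.47 with VAV1 and vehicle, and 6.99, 6.86 and 7.13 with the empty vector. It had 8.76, 8.97 and 9.07 with RAC1 P29S, against 7.91, 7.92 and 7.96 with the untreated empty vector. All libraries with VAV1 or RAC1 P29S lay above their own empty-vector libraries, without overlap. This was the largest rise of any member in all 3 comparisons with an empty vector, at 1.53 ± 0.10 for VAV1, 1.92 ± 0.10 for VAV1 with saracatinib and 1.002 ± 0.10 for RAC1 P29S (limma adjusted p = 6.64e-08, 1.06e-08 and 3.91e-05). It also rose with saracatinib, by 0.38 ± 0.10 (limma adjusted p = 0.0113; 0.0601 without saracatinib replicate 2). The VAV1 effect was the larger by 0.53 ± 0.14 (limma adjusted p = 0.0173; 0.0513 without RAC1 P29S replicate 1). HSPB1, the common small heat shock protein, had 11.17 to 11.31 with VAV1 and saracatinib, 11.31 to 11.34 with VAV1 and vehicle and 11.04 to 11.29 with the empty vector, and no comparison of it passed (limma adjusted p of 0.181 to 0.860). HSPB6, at log2 1.85 to 4.55, fell by 1.45 ± 0.48 with saracatinib (limma adjusted p = 0.0287), a low gene whose call was lost without saracatinib replicate 1 (adjusted p = 0.107).

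BAG proteins release nucleotide from HSP70 and tie it to other systems. BAG2, which slows the ubiquitin ligase STUB1, had 9.79, 9.85 and 9.80 with VAV1 and saracatinib, 9.92, 9.84 and 10.02 with VAV1 and vehicle, and 9.02, 9.20 and 9.21 with the empty vector. Both VAV1 groups lay above the empty vector, by 0.67 ± 0.07 and 0.78 ± 0.07 (limma adjusted p = 9.52e-06 and 1.70e-06); BAG2 shares exon bases with RAB23 on the opposite strand. BAG3, the autophagy partner of HSPB8, had 10.65, 10.79 and 10.76 with VAV1 and saracatinib, 10.54, 10.55 and 10.50 with VAV1 and vehicle, and 10.96, 10.90 and 10.89 with the empty vector. Its direction was opposite to that of HSPB8 with VAV1 and with RAC1 P29S, and the same with saracatinib: it fell by 0.39 ± 0.05 with VAV1 (limma adjusted p = 6.00e-05) and by 0.25 ± 0.05 with RAC1 P29S (adjusted p = 0.0056), and rose by 0.20 ± 0.05 with saracatinib (adjusted p = 0.00816). BAG1, which links HSP70 to the proteasome, had 10.28, 10.42 and 10.39 with VAV1 and saracatinib, 9.86, 9.71 and 9.70 with VAV1 and vehicle, and 9.63, 9.70 and 9.61 with the empty vector. The saracatinib libraries alone stood high, at 0.61 ± 0.07 over VAV1 with vehicle (limma adjusted p = 1.20e-05), and the VAV1 difference of 0.11 ± 0.07 did not pass (adjusted p = 0.208). BAG4, an antiapoptotic member, fell by 0.44 ± 0.10 with RAC1 P29S (limma adjusted p = 0.00668).

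The heat shock factors were measured as mRNA. HSF1 had 9.81, 9.82 and 9.87 with VAV1 and saracatinib, 10.19, 10.18 and 10.33 with VAV1 and vehicle, and 10.17, 10.15 and 10.27 with the empty vector. The vehicle groups overlapped (0.04 ± 0.06, limma adjusted p = 0.636), and the saracatinib libraries lay under both, by 0.41 and 0.36 (adjusted p = 0.000205 and 0.000392). With RAC1 P29S it had 10.35, 10.52 and 10.57, against 10.25, 10.24 and 10.28, a rise of 0.23 ± 0.07 (limma adjusted p = 0.0276) that was lost without RAC1 P29S replicates 2 or 3 or empty-vector replicates 1 or 2 (adjusted p up to 0.112). HSF2, which can pair with HSF1, passed in no comparison (limma adjusted p of 0.523 to 0.966). The activity of a heat shock factor is set by its protein, which was not measured.

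Mitochondrial members form an import motor and a folding chamber. HSPD1, the barrel of the chamber, and HSPE1, its lid, lie on opposite strands of chromosome 2, where the annotated span of HSPD1 (chr2:197486581-197516737, minus strand) takes in that of HSPE1 (chr2:197499994-197503457, plus strand). HSPD1 had 13.71, 13.65 and 13.64 with VAV1 and saracatinib, 14.20, 14.09 and 14.11 with VAV1 and vehicle, and 13.54, 13.60 and 13.55 with the empty vector. The VAV1 vehicle libraries were the highest, at 0.57 ± 0.04 over the empty vector (limma adjusted p = 6.56e-08), and those with saracatinib lay 0.46 ± 0.04 under them (adjusted p = 9.20e-07). HSPE1 had 11.48, 11.50 and 11.50 with VAV1 and saracatinib, 11.76, 11.60 and 11.77 with VAV1 and vehicle, and 10.997, 11.31 and 11.21 with the empty vector. It rose by 0.54 ± 0.07 with VAV1 and by 0.32 ± 0.07 with VAV1 and saracatinib over the empty vector (limma adjusted p = 5.70e-05 and 0.00321). Its fall of 0.22 ± 0.07 with saracatinib (limma adjusted p = 0.0299) was lost without any library but VAV1 replicate 2 (adjusted p up to 0.104). That call was also lost after quantile normalization and without the mean-variance trend and robust estimation. With RAC1 P29S the pair parted: HSPD1 had 14.39, 14.38 and 14.42, against 14.23, 14.18 and 14.26, a rise of 0.17 ± 0.04 (limma adjusted p = 0.00508), while HSPE1 had 12.22, 12.09 and 12.02, against 12.35, 12.25 and 12.31, a fall of 0.19 ± 0.06 (adjusted p = 0.0263). The HSPE1 fall was lost without RAC1 P29S replicates 2 or 3 or empty-vector replicates 1 or 3 (adjusted p up to 0.102), and HSPE1 shares exon bases with the read-through gene HSPE1-MOB4. The VAV1 effect exceeded the RAC1 P29S effect for HSPE1 by 0.73 ± 0.10 and for HSPD1 by 0.40 ± 0.05 (limma adjusted p = 9.80e-05 and 4.92e-05). HSPA9, the HSP70 of the import motor, had 12.95, 12.81 and 12.95 with VAV1 and saracatinib, 13.32, 13.31 and 13.29 with VAV1 and vehicle, and 12.79, 12.92 and 12.81 with the empty vector. The first and last of these groups overlapped, and the VAV1 vehicle libraries stood above both (0.47 ± 0.05 for VAV1, -0.41 ± 0.05 for saracatinib; limma adjusted p = 3.93e-06 and 1.97e-05). DNAJA3, the J protein of HSPA9, rose by 0.28 ± 0.05 with VAV1 and fell by 0.36 ± 0.05 with saracatinib (limma adjusted p = 0.000601 and 0.000108). DNAJC11, a J protein of mitochondria, fell by 0.29 ± 0.06 with saracatinib and was 0.23 ± 0.06 lower in VAV1 cells with saracatinib than in empty-vector cells (limma adjusted p = 0.0014 and 0.00533). DNAJC11 and DNAJC17 share exon bases with genes on the opposite strand.

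DNAJC4 ran the other way. It had 7.80, 7.77 and 7.36 with VAV1 and saracatinib, 6.42, 6.77 and 6.49 with VAV1 and vehicle, and 8.02, 7.64 and 7.65 with the empty vector. The VAV1 vehicle libraries were far the lowest, at -1.21 ± 0.16 (limma adjusted p = 4.60e-05), and the saracatinib libraries lay 1.09 ± 0.16 above them (adjusted p = 0.000152). With RAC1 P29S it had 7.32, 6.93 and 7.19, against 7.17, 7.35 and 7.21, an overlap (-0.10 ± 0.14, limma adjusted p = 0.647), and the effects differed by -1.11 ± 0.22 (adjusted p = 0.00253). DNAJC4 shares exon bases with an antisense RNA.

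**Figure D3:**
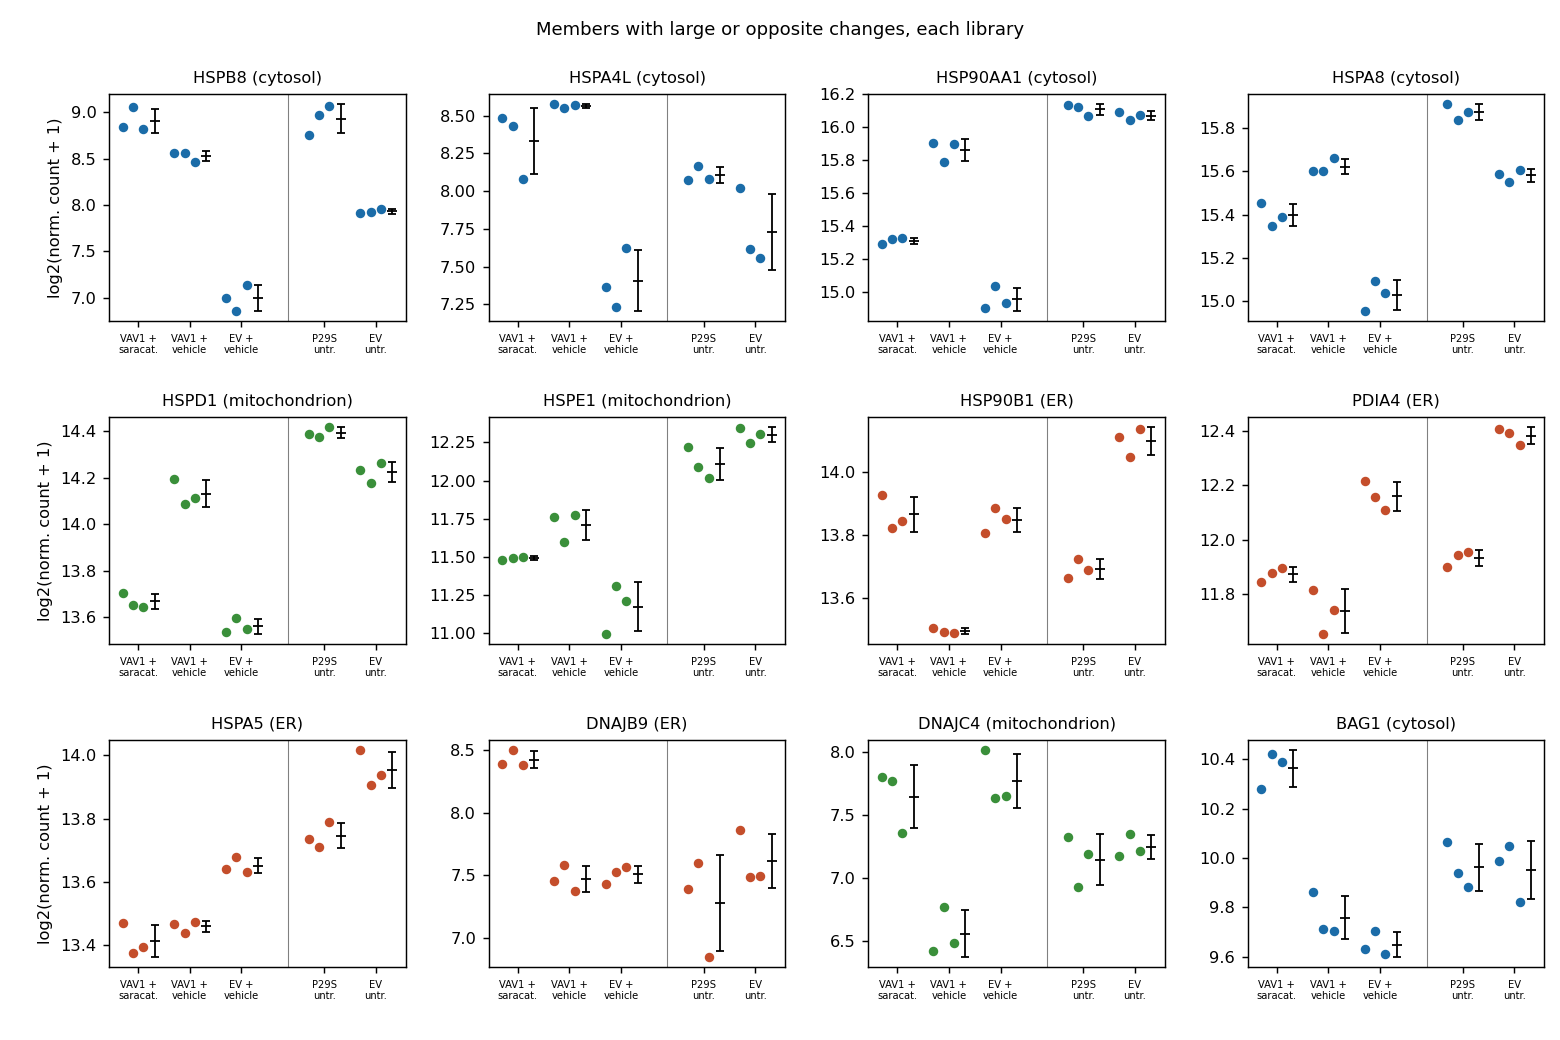
Log2 values of 12 chaperone genes in each of the 15 libraries (vertical axes differ and do not start at 0); dots are libraries, bars beside them are mean and SD of 3, EV is the empty vector, and the line parts the experiments. HSP90AA1, HSPA8 and HSPD1 were highest with VAV1 and vehicle in the first experiment, HSP90B1 and DNAJC4 lowest with these, and HSPB8, DNAJB9 and BAG1 highest with saracatinib within that experiment.

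Several ER members were lower both with VAV1 and with RAC1 P29S. HSP90B1, the ER form of HSP90 (chr12:103930107-103953645, plus strand), had 13.93, 13.82 and 13.84 with VAV1 and saracatinib, 13.51, 13.49 and 13.49 with VAV1 and vehicle, and 13.81, 13.88 and 13.85 with the empty vector. It had 13.66, 13.72 and 13.69 with RAC1 P29S, against 14.11, 14.05 and 14.13 with the untreated empty vector. The VAV1 vehicle and RAC1 P29S libraries lay under their empty-vector libraries without overlap, by 0.35 and 0.40, and the saracatinib libraries overlapped the empty-vector ones. The fold changes were -0.35 ± 0.04 for VAV1, 0.37 ± 0.04 for saracatinib and -0.40 ± 0.04 for RAC1 P29S (limma adjusted p = 7.10e-06, 6.46e-06 and 2.44e-05), and the difference between these overexpression effects did not pass (0.05 ± 0.05, adjusted p = 0.539). HSPA5, the ER HSP70 that also holds the stress sensors in check (chr9:125234853-125241330, minus strand), had 13.47, 13.37 and 13.39 with VAV1 and saracatinib, 13.47, 13.44 and 13.47 with VAV1 and vehicle, and 13.64, 13.68 and 13.63 with the empty vector. It had 13.74, 13.71 and 13.79 with RAC1 P29S, against 14.02, 13.91 and 13.94. HSPA5 fell by 0.19 ± 0.04 with VAV1 and by 0.21 ± 0.04 with RAC1 P29S (limma adjusted p = 0.00095 and 0.0036), and its difference between saracatinib and vehicle did not pass (-0.05 ± 0.04, adjusted p = 0.359; 0.04 after quantile normalization). HSPA13, a microsomal HSP70, rose by 0.35 ± 0.09 with VAV1 and fell by 0.38 ± 0.10 with RAC1 P29S (limma adjusted p = 0.00495 and 0.0119), effects that differed by 0.74 ± 0.14 (adjusted p = 0.00144).

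Disulfide isomerases form and shuffle disulfide bonds. PDIA4 (chr7:149003062-149028641, minus strand) had 11.84, 11.88 and 11.90 with VAV1 and saracatinib, 11.81, 11.65 and 11.74 with VAV1 and vehicle, and 12.21, 12.16 and 12.11 with the empty vector. It had 11.90, 11.94 and 11.96 with RAC1 P29S, against 12.41, 12.39 and 12.35. All libraries with VAV1 or RAC1 P29S lay under their empty-vector libraries, at -0.29 ± 0.05 with saracatinib, -0.42 ± 0.05 with vehicle and -0.45 ± 0.04 with RAC1 P29S (limma adjusted p = 0.000391, 1.30e-05 and 2.26e-05). The saracatinib difference within VAV1 cells, 0.14 ± 0.05 (limma adjusted p = 0.0452), was lost without any library but VAV1 replicate 1 (adjusted p up to 0.170). PDIA6 rose by 0.17 ± 0.04 with saracatinib and fell by 0.19 ± 0.04 with RAC1 P29S (limma adjusted p = 0.00411 and 0.00379). PDIA5 had 7.88, 7.66 and 7.86 with VAV1 and saracatinib, 7.69, 7.52 and 7.51 with VAV1 and vehicle, and 7.29, 7.28 and 7.13 with the empty vector. Unlike PDIA4 it lay above the empty vector in all libraries with VAV1, by 0.57 ± 0.12 with saracatinib and 0.34 ± 0.12 with vehicle (limma adjusted p = 0.00155 and 0.0299), and the second of these calls was lost without VAV1 replicate 1 or empty-vector replicate 3 (adjusted p up to 0.109). Its differences for saracatinib and for RAC1 P29S did not pass (0.22 ± 0.12 and 0.39 ± 0.20; limma adjusted p = 0.152 and 0.177). PDIA3, the partner of the lectins, passed in no comparison (limma adjusted p of 0.0867 to 0.621). CALR, a lectin that binds sugar-bearing proteins in the lumen, had 13.96, 13.98 and 13.91 with VAV1 and saracatinib, 13.82, 13.78 and 13.77 with VAV1 and vehicle, and 13.78, 13.70 and 13.74 with the empty vector. The saracatinib libraries stood above both others, by 0.16 ± 0.04 and 0.21 ± 0.04 (limma adjusted p = 0.00366 and 0.000378). With RAC1 P29S it fell by 0.15 ± 0.04 (limma adjusted p = 0.0126), with adjusted p = 0.0588 without RAC1 P29S replicate 1 and 0.0529 without empty-vector replicate 1. CANX, the membrane-bound lectin, passed as deposited only in VAV1 with saracatinib over the empty vector (0.12 ± 0.04, limma adjusted p = 0.0184), which was lost without saracatinib replicate 3 or empty-vector replicate 2 (adjusted p up to 0.0617). Its difference between saracatinib and vehicle did not pass as deposited (0.07 ± 0.04, limma adjusted p = 0.157) and passed after quantile normalization.

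Among the ER J proteins 5 of 10 rose with saracatinib, and DNAJB9 rose more than any other called member except DNAJC4. DNAJB9, a target of the unfolded protein response that hands HSPA5 to its sensor ERN1 (chr7:108569568-108574850, plus strand), had 8.39, 8.50 and 8.38 with VAV1 and saracatinib, 7.46, 7.58 and 7.37 with VAV1 and vehicle, and 7.43, 7.53 and 7.56 with the empty vector. The saracatinib libraries alone stood high, at 0.95 ± 0.10 over VAV1 with vehicle (limma adjusted p = 9.62e-06), and the vehicle groups overlapped (-0.04 ± 0.10, adjusted p = 0.793). Its RAC1 P29S libraries, at 7.39, 7.59 and 6.85, overlapped the empty-vector ones at 7.86, 7.49 and 7.49 (-0.34 ± 0.19, limma adjusted p = 0.221). DNAJC3, a cochaperone of HSPA5 also known as P58IPK, had 10.27, 10.19 and 10.20 with VAV1 and saracatinib, 9.91, 9.79 and 9.80 with VAV1 and vehicle, and 10.04, 10.16 and 10.12 with the empty vector. VAV1 vehicle libraries were the lowest of these (-0.27 ± 0.06 for VAV1 and 0.39 ± 0.06 for saracatinib; limma adjusted p = 0.00278 and 0.000262). DNAJB11, another HSPA5 partner, rose by 0.35 ± 0.06 with saracatinib and fell by 0.40 ± 0.07 with RAC1 P29S (limma adjusted p = 0.000839 and 0.00145), and DNAJC1 rose by 0.52 ± 0.10 with saracatinib (adjusted p = 0.0016). DNAJC16 fell by 0.35 ± 0.12 with VAV1 and rose by 0.39 ± 0.12 with saracatinib (limma adjusted p = 0.0319 and 0.0198). The VAV1 call was lost without VAV1 replicates 1 or 2 or empty-vector replicates 2 or 3 (adjusted p up to 0.110), and the saracatinib call without saracatinib replicate 3 or VAV1 replicates 1 or 2 (adjusted p up to 0.0917).

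**Figure D4:**
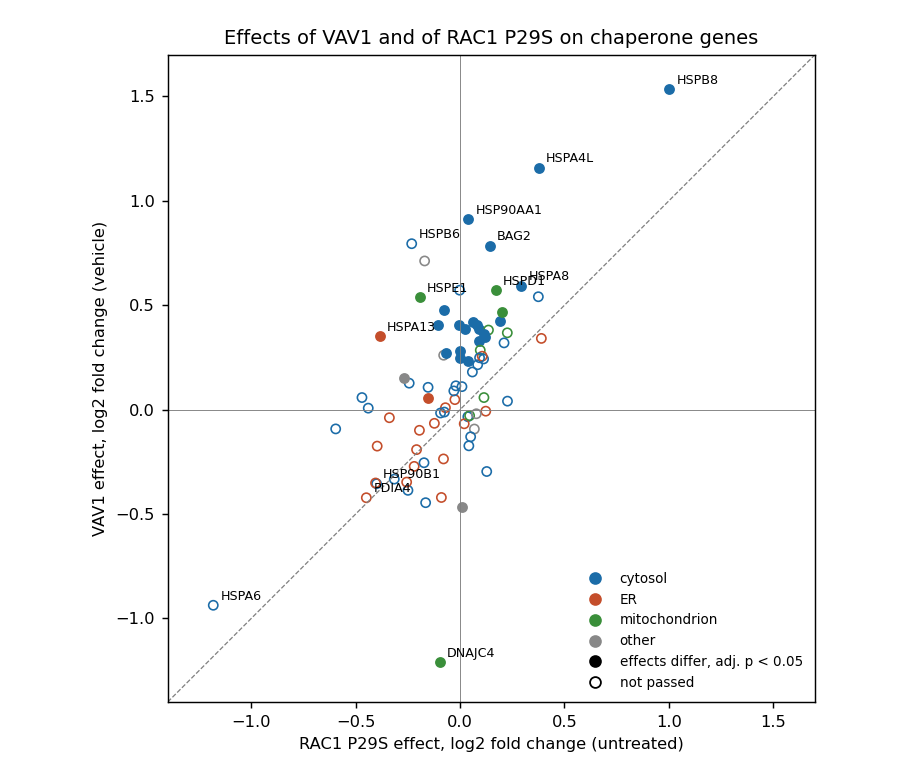
Log2 fold change with VAV1 in vehicle (vertical axis) against that with RAC1 P29S in untreated cells (horizontal axis) for the 83 chaperone genes tested in both, coloured by compartment; filled points are genes whose effects differed by limma at adjusted p under 0.05, and the dashed line marks equal effects. Of the filled points, 26 lie above the line, 20 of them cytosolic, and 2 lie below it, while HSP90B1 and PDIA4 lie near it.

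Other genes of protein folding were counted by list. The counts stand beside 23.6% higher and 20.1% lower of all tested genes with VAV1, 18.3% and 19.1% with saracatinib, and 15.6% and 15.5% with RAC1 P29S. The prefoldin counts with VAV1 and with saracatinib lay under these shares in both directions. Of 16 tested cochaperones of HSP90 and HSP70, 9 rose and 2 fell with VAV1, and 2 rose and 11 fell with saracatinib. CHORDC1, an HSP90 cochaperone, rose by 0.82 ± 0.07 with VAV1 (limma adjusted p = 8.52e-07), and the p23 protein PTGES3 fell by 0.53 ± 0.05 with saracatinib (adjusted p = 1.14e-06). With RAC1 P29S 5 rose and 2 fell of 17, and TOMM34, which ties HSP70 and HSP90 to mitochondrial import, rose by 0.50 ± 0.05 (limma adjusted p = 2.32e-05). The largest change there was that of CRYAB, a small heat shock protein that this list also held. It fell by 1.66 ± 0.51 (limma adjusted p = 0.0311) and was a low gene, at mean log2 2.95 against 4.62 with the empty vector. Prefoldin, which delivers actin and tubulin to TRiC, and the tubulin folding cofactors gave 2 higher and 0 lower of 13 with VAV1 (5 and 0 at limma's unadjusted p under 0.05), 1 higher and 1 lower with saracatinib, and 1 higher and 3 lower with RAC1 P29S. The rises with VAV1 were in PFDN1 (0.64 ± 0.08) and VBP1 (0.43 ± 0.08; limma adjusted p = 2.31e-05 and 0.000467). ER folding enzymes outside the family gave 4 higher and 9 lower of 16 with VAV1, 6 higher and 1 lower with saracatinib, and 0 higher and 8 lower with RAC1 P29S (1 and 10 at limma's unadjusted p under 0.05). ERO1B, an oxidase that recharges the disulfide isomerases, fell by 1.66 ± 0.12 with VAV1, rose by 1.66 ± 0.12 with saracatinib and fell by 2.10 ± 0.09 with RAC1 P29S (limma adjusted p = 8.13e-08, 1.55e-07 and 7.32e-08). Genes of the unfolded protein response and of ER-associated degradation gave 5 higher and 7 lower of 18 with VAV1, 8 higher and 4 lower with saracatinib, and 2 higher and 7 lower with RAC1 P29S. Within that list the members of the ATF4 branch PPP1R15A and TRIB3 rose by 0.93 ± 0.06 and 0.92 ± 0.06 with VAV1 (limma adjusted p = 4.15e-08 and 2.55e-08), ATF4 fell by 0.70 ± 0.05 with saracatinib, and the sensor EIF2AK3 rose by 0.73 ± 0.10 with it (adjusted p = 3.69e-07 and 0.000112). Mitochondrial folding factors and proteases gave 4 higher and 1 lower of 12 with VAV1, 0 higher and 5 lower with saracatinib (0 and 7 at limma's unadjusted p under 0.05), and 4 higher and 0 lower with RAC1 P29S (7 and 1). TRAP1, the mitochondrial HSP90, fell by 0.50 ± 0.06 with saracatinib and rose by 0.52 ± 0.06 with RAC1 P29S (limma adjusted p = 1.41e-05 and 0.00015).

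Members that passed no filter were DNAJB7, DNAJB13, HSPA12B, HSPB2 and HSPB9 and 7 HSP90 pseudogene symbols, at log2 0 to 3.65, and they are given no comparison. CCT6B and DNAJC28 passed it in the first experiment only, and DNAJA4 in the second only.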

How the data were processed

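Total RNA of 15 A375 libraries was sequenced after an Illumina TruSeq preparation, per the labels' protocols. The authors deposited 1 value per gene symbol and library on a log2 scale, the log2 of a normalized count plus 1, scaled within each experiment. Named in the submitters' processing notes are the tools kallisto and DESeq2, with GRCh38 as the build. Versions, annotation release and strand use are not given in the sources used here. Depth in reads is not known from these values, so counting intervals are not given.

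Fold changes are differences of mean log2 values, given with SE, and levels with SD. They were tested with limma 3.58.1 in R 4.3.3, a mean being fitted to each group. Its empirical Bayes step was robust and followed the mean-variance trend, tests were two-sided, and p-values were adjusted by Benjamini-Hochberg over all genes tested (threshold 0.05). The 9 libraries of the first experiment shared 1 fit, the 6 of the second had their own, and the difference of effects used all 15. Genes entered the test if 3 or more libraries had a normalized count of 10 or more. The method was tested on simulated data for the comparisons between groups, and the difference of effects was not simulated.

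Named in the text were a standing list of 20 members and, per comparison, up to 8 members each with the highest and lowest fold changes past the threshold at a mean normalized count of at least 50, with others chosen after their values were seen (further TRiC subunits, J proteins, HSPA6, HSPB6, HSPA14, BAG4 and pseudogenes). From 5 related gene lists, up to 2 genes per comparison were named. The members and lists were chosen with earlier results of these data known. Compartments were assigned by hand from general knowledge. Gene coordinates are those of GENCODE 29 (GRCh38), in which all 98 members were found, and promoter sequences those of RefSeq (GRCh38.p14). Alternatives were median-of-ratios scaling, quantile normalization, no filter or a filter at 50, a pseudocount of 16, limma without trend and robust estimation, a fit of the groups compared alone, a replicate block and leaving out each library.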

Additional observations from a re-analysis of the deposited data

Results flagged for a closer look

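For 28 chaperone genes the effect of VAV1 (over the empty vector, with vehicle) differed from the effect of RAC1 P29S (over the empty vector, untreated) by limma's test of the difference itself, at an adjusted p under 0.05 over 13810 genes. The values below are the VAV1 effect less the RAC1 P29S effect on the log2 scale. In the cytosol they were 0.87 for HSP90AA1, 0.78 for HSPA4L, 0.64 for BAG2, 0.56 for HSPA14, 0.53 for HSPB8, 0.51 for DNAJA1, 0.36 for DNAJC2, 0.34 for DNAJC9, 0.32 for HSPH1, 0.30 for HSPA8, 0.25 for DNAJA2 and 0.24 for DNAJC7. Among the TRiC subunits they were 0.41 for CCT2, 0.36 for CCT6A, 0.30 for CCT4, 0.28 for CCT3, 0.25 for TCP1, 0.24 for CCT5, 0.23 for CCT8 and 0.20 for CCT7. Mitochondrial genes gave 0.73 for HSPE1, 0.40 for HSPD1, 0.27 for HSPA9 and -1.11 for DNAJC4. In the ER they were 0.74 for HSPA13 and 0.21 for CALR. HSPB11, a protein of cilia despite its name, gave 0.42 and DNAJC22 gave -0.47. Of the 28, 19 passed in every alternative, and 7 were lost without 1 library or another, namely CCT7, CCT8, DNAJA2, DNAJC2, DNAJC22, DNAJC9 and HSPB8, with adjusted p up to 0.0975. CALR (quantile normalization, and limma without trend and robust estimation) and DNAJC7 (replicate block) were lost in other settings only. The experiments differed in vehicle as well as in the gene, and the part of the vehicle was not tested. Their empty-vector controls also differed in the chaperone share of normalized counts (2.15% with vehicle, 2.81% untreated), and the part of that was not tested.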

How the results depend on the processing

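The counts of members called kept within 1.5 times of the reported value in 124 of 129 recomputations. RAC1 P29S gave 5 higher without the mean-variance trend and robust estimation (9 reported). Leaving out each library in turn gave, for the counts that moved by more, 5 to 9 higher with RAC1 P29S (lowest without RAC1 P29S replicate 3), 17 to 25 higher with VAV1 and saracatinib over the empty vector (lowest without saracatinib replicate 3) and 6 to 10 lower there (7 without saracatinib replicate 1, 6 without empty-vector replicate 3). Every member called was recomputed as well. In every alternative in which the member was tested, 40 of 48 calls passed with VAV1 and 30 of 44 with saracatinib. So did 22 of 37 with VAV1 and saracatinib, 13 of 24 with RAC1 P29S and 19 of 28 differences. HSPA6 is among these 13 with RAC1 P29S, and it was tested in 6 of the 7 alternatives that kept all libraries. No called member changed sign except HSPD1 with VAV1 and saracatinib (-0.0003 after quantile normalization, 0.11 reported). Quantile normalization also turned values that had not passed: with VAV1, CALR to -0.0227, CANX to -0.0653 and HSF2 to 0.0003; with saracatinib, HSF2 to -0.0205 and HSPA5 to 0.0393; with VAV1 and saracatinib, HSF2 to -0.0203 and HSP90B1 to -0.0826; and with RAC1 P29S, HSP90AA1 to -0.0634 and HSPB1 to 0.0080. The cause was not tested. Of the standing-list values that had not passed, 2 passed in an alternative. These were CANX with saracatinib after quantile normalization, and HSPH1 with VAV1 and saracatinib without empty-vector replicate 1. Without single libraries, values that had not passed ranged across 0: with VAV1, HSF2 -0.0958 to 0.0502, DNAJB9 -0.0932 to 0.0099 and HSF1 -0.0065 to 0.077; with saracatinib, HSF2 -0.044 to 0.1019; with VAV1 and saracatinib, HSF2 -0.041 to 0.0327, HSP90B1 -0.0141 to 0.0389 and HSPB1 -0.0274 to 0.0971; and with RAC1 P29S, HSPB1 -0.0936 to 0.0288 and CANX -0.0729 to 0.0026.

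Libraries of the same replicate number did not deviate together (residual correlations of -0.05 to 0.01 over 12 pairs). Whether the numbers mark matched libraries cannot be settled this way, since matched libraries need not share a deviation. With the replicate number as a block the calls, higher then lower, were 36 and 10 with VAV1, 15 and 26 with saracatinib, 22 and 10 with VAV1 and saracatinib and 7 and 15 with RAC1 P29S, and 24 differences passed. Depth in reads is unknown, and calls for members under about log2 5, such as HSPA6 and HSPB6, rest on few counts.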
